A study of Mus musculus with 6 samples.

Results

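The constitutive proteasome subunit genes were examined in mature dendritic cells with and without the m6A writer Mettl3. Members were chosen by symbol, as every gene named Psma, Psmb, Psmc, Psmd or Psme with a number, without the interferon-induced catalytic subunits Psmb8, Psmb9 and Psmb10. The choice used no measured value and gave 40 of the 23863 genes in the deposited sheet. The libraries came from bone marrow-derived dendritic cells (BMDC) of Mettl3 WT mice (Mettl3 fl/fl) and Mettl3 KO mice (Mettl3 fl/fl CD11c-Cre), C57BL/6 animals aged 6 weeks, so both groups carried the floxed allele and the KO also carried the Cre transgene. Cre was driven by CD11c, so deletion was limited to cells that express or had expressed CD11c. Both cultures were expanded in IL-4 (1 ng/ml) together with GM-CSF (10 ng/ml), selected for CD11c, and matured over 24 h in LPS at 100 ng/ml. Actinomycin D, which blocks transcription, was then present for 0, 3 or 6 h, with 1 library for each genotype and time. The study's methods describe more than a single pair of mice. Here 1 culture per genotype was analysed, and the number of mice behind it was not given in the sources used here.

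The proteasome is the protease that degrades proteins tagged with ubiquitin. Its barrel-shaped core (the 20S particle) is a stack of alpha and beta rings with the proteolytic sites inside, and its cap (the 19S particle) binds ubiquitin chains, removes them and unfolds the substrate with a ring of ATPases. The PA28 cap, made of Psme1 and Psme2, opens the core without ubiquitin and is known in dendritic cells for its part in making peptides for MHC class I. Since the subunits are built into particles of fixed make-up, their mRNAs are a case in which many genes are used together.

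The 6 libraries held approximately 17300000 to 21800000 reads, estimated from the steps between low RPKM values. ERCC spike-in RNA took 7.89 to 30.3% of the summed RPKM. With 1 library per genotype and time there is no replicate check and no test, and the differences compare 2 cultures. The cultures also differ in a code within the sample titles, which reads D3 in WT and D2 in KO. What this code stands for was not explained, and its part in the differences cannot be separated from that of genotype. Mettl3 measured 7.79, 2.68 and 2.59 RPKM over the WT course and 6.99, 4.83 and 4.06 RPKM over the KO course (0, 3 and 6 h). Those values cover the whole gene, of which only an early part is deleted, so they do not check the labels. All 10 dendritic cell markers were above the filter and summed to 6824 RPKM in WT and 6180 RPKM in KO at 0 h, led by Cd74 (3315 and 2884 RPKM) and Ccr7 (1772 and 1863 RPKM), while the defining genes Itgax (13.06 and 10.04 RPKM), Zbtb46 (23.9 and 22.6 RPKM) and Flt3 (26.96 and 30.8 RPKM) were lower. Of 9 macrophage markers, 8 were above the filter, and the list summed to 1030 RPKM in WT and 1073 RPKM in KO at 0 h and to 1414 and 1906 RPKM at 6 h, led by Marco, Cd68 and Adgre1, with Mrc1 below 1 RPKM. The neutrophil markers, 11 of them in the sheet, summed to 7484 RPKM in WT and 14417 RPKM in KO at 0 h and to 6923 and 7007 RPKM at 6 h, led by S100a8, S100a9 and Lcn2, while Elane and Mpo stayed below 1 RPKM. In bulk RNA, fewer cells of a type and less RNA per cell cannot be told apart.

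Nearly the whole particle was expressed before transcription was blocked. Of the 40 members, 38 averaged 1 RPKM or more across the 6 libraries. Psma8, a testis-specific alpha subunit, measured 1.09, 0.79 and 0.81 RPKM over the WT course and 0.62, 0.44 and 0.45 RPKM over the KO course (0, 3 and 6 h). Psmb11, the catalytic subunit of the thymus proteasome, was listed at 0, 0 and 0.081 RPKM over the WT course and 0.022, 0.020 and 0 RPKM over the KO course. Both are tissue-restricted variants, and neither entered the counts below. The members together made up 0.73% of the summed RPKM in WT and 0.69% in KO at 0 h.

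At 0 h the 38 members ranged from 7.85 to 674 RPKM in WT, with a median of 82.2, and from 9.67 to 746 RPKM in KO, with a median of 83.4. The PA28 pair stood at the top in both cultures. Psme2 was read at 674 RPKM in WT and 746 RPKM in KO, and Psme1 at 459.7 and 573 RPKM. Below them came the rings of the core, with a median of 134 RPKM for the 7 alpha genes and 148 RPKM for the 7 beta genes in WT. The highest core genes in WT were Psma7 (266 RPKM), Psma6 (231 RPKM) and Psmb4 (218 RPKM). The parts of the cap were lower, with medians of 70.4 RPKM for the 6 ATPases, 96.8 RPKM for the 3 non-ATPase base genes and 53.5 RPKM for the 8 lid genes. The base chaperones Psmd5, Psmd9 and Psmd10, which help assemble the ATPase ring and leave it before the particle is complete, had the lowest median (21.7 RPKM), at 21.7, 7.85 and 42.9 RPKM in WT. The lowest levels belonged to Psmd9 and Psme4, the gene of the PA200 activator, in both cultures (Psmd9 7.85 and 9.67 RPKM, Psme4 17.4 and 13.99 RPKM). By sequence, 8 of the 40 members have a near-identical copy elsewhere in the annotation (Psma4, Psma5, Psmb3, Psmb5, Psmc1, Psmd11, Psmd2 and Psme2), so their reads could be shared.

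**Figure D1:**
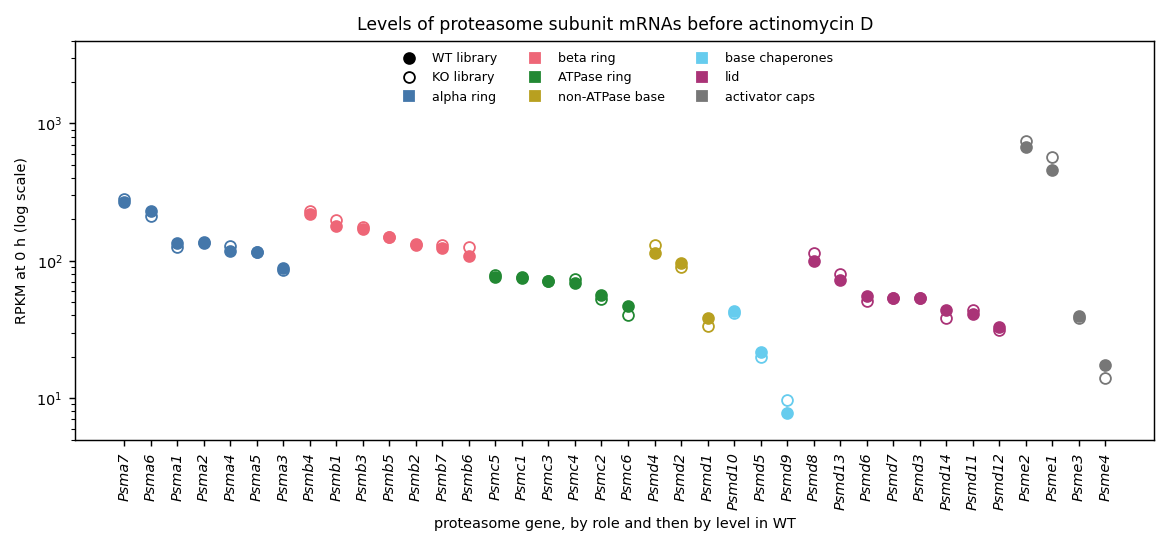
RPKM at 0 h (log scale) of the 38 expressed proteasome genes, 1 point per library (filled WT, open KO), coloured by role and ordered by level in WT within each role. Psme2 and Psme1 lie at 459.7 to 746 RPKM, above all other members, and the WT and KO points of most genes nearly coincide.

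Promoters of a few members, each picked by hand with a match to a motif searched, are shown as a description of sequence. Of the 40 members, 33 matched a RefSeq entry (GRCm38.p6), and the 250 bases before the gene start were searched on both strands for 6 short motifs, chosen with the members' values known. The GC box GGGCGG was present in 20 of 33 member promoters (60.6%) and in 35.4% of 27025 genes. The ETS-type motif CCGGAAGT was present in 5 (15.2%, against 3.23% of genes), the nuclear respiratory factor motif in 6 (18.2%, against 4.23%) and CCAAT in 13 (39.4%, against 37.5%). TGACNNNGC, the core of the antioxidant response element through which Nfe2l1 (NRF1) is known to raise proteasome genes, was present in 5 (15.2%, against 11.5%), namely Psmb5, Psmb6, Psmc6, Psmd12 and Psmd9. The STAT-type motif TTCNNNGAA was present in 0 of the 33 and in 8.13% of genes. A match describes letters only.

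The 5 promoters below belong to genes named in the results, and run to the base before the gene start in RefSeq. The GENCODE M21 gene starts 27 bases further upstream for Psmb5, 44 for Psmd12, 39 for Psmd6 and 371 for Psme1, so those windows overlap the GENCODE gene, and that of Psme1 lies wholly inside it. The GENCODE gene of Psmb6 starts 10 bases further downstream. Capitals mark TGACNNNGC in Psmb5 and Psmb6, both TGACNNNGC and CCGGAAGT (each on the opposite strand) in Psmd12, CCGGAAGT in Psmd6 and GGGCGG in Psme1. They lie at chr14:54617996-54618245 (minus strand, Psmb5), chr11:70525107-70525356 (plus strand, Psmb6), chr11:107479278-107479527 (plus strand, Psmd12), chr14:14120946-14121195 (minus strand, Psmd6) and chr14:55578244-55578493 (plus strand, Psme1).
Psmb5: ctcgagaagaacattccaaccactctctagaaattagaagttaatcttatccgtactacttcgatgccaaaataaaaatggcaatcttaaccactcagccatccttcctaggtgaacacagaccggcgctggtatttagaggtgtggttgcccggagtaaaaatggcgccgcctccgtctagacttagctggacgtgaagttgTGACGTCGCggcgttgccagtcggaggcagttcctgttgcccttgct
Psmb6: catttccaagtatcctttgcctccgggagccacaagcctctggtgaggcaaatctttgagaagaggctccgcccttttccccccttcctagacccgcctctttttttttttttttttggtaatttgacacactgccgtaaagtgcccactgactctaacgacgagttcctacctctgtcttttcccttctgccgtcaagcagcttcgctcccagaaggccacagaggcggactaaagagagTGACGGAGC
Psmd12: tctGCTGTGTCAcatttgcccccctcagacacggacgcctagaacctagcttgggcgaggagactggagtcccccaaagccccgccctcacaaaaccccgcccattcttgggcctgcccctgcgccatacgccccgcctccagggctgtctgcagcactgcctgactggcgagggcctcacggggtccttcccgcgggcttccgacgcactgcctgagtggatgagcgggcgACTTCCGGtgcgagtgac
Psmd6: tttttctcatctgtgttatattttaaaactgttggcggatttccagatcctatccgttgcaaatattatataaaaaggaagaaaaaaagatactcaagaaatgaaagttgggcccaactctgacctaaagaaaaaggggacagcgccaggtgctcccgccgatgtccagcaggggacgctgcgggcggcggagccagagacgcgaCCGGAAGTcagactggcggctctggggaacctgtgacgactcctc
Psme1: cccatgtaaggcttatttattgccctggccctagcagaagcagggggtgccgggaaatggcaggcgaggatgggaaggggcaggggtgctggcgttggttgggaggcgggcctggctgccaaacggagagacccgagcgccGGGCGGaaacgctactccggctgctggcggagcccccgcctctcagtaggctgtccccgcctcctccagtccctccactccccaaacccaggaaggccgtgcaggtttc
The TGACNNNGC match starts 47 bases before the RefSeq start in Psmb5 and 9 bases before it in Psmb6, the genes of catalytic subunits. In the lid genes Psmd12 and Psmd6, CCGGAAGT starts 18 and 45 bases before the RefSeq start. By the GENCODE starts, 44 and 39 bases further upstream, the match lies inside the gene of Psmd12 and runs across the start of Psmd6.

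Decay under actinomycin D was then measured in each culture. The half-life follows the study's definition, 2 divided by the sum of the decay rates (log2 units per h) to 3 h and to 6 h, on amounts scaled by 75 ERCC transcripts. The median half-life of the 38 members was 1.58 h (WT) and 1.54 h (KO), and that of all 10531 genes was 1.45 and 1.38 h. Members ranged from 1.06 h (Psmd7) to 2.67 h (Psme1) in WT and from 1.05 h (Psmd6) to 2.25 h (Psme1) in KO. After 3 h the median member kept 24.1% of its 0 h amount in WT and 16.2% in KO, where the median gene kept 19.1 and 12.7%. At 6 h it kept 8.81 and 16.9%, beside 8.80 and 15.1% for the median gene. In the KO culture the amount at 6 h was above that at 3 h for 29 of 38 members and for 77.8% of all genes, and in WT for 0 of 38 members and 0.969% of genes. The hours themselves rest on the spike-in scale: with no such scaling the median half-life was 5.27 h (WT) and 5.97 h (KO). They also rest on the times used, as the median was 1.71 h (WT) and 2.34 h (KO) without the 3 h libraries, with KO then above WT, and 1.46 h (WT) and 1.14 h (KO) without the 6 h libraries.

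Setting each library to its own median gene removes the library factor. On that scale a gene was counted as kept, or as fallen, where its change since 0 h was at least 1.5-fold above, or below, the median gene at both 3 and 6 h. In WT 11 of 38 members (28.9%) were kept, beside 26.9% of all genes, and 4 (10.5%) had fallen, beside 13.8%. In KO 13 of 38 (34.2%) were kept, beside 25.7%, and 1 (2.63%) had fallen, beside 13.4%. The shares in WT lay near those of all genes. The 11 genes kept in WT were also kept in KO, and 6 of them (Psmb1, Psmc3, Psmd13, Psmd8, Psme1 and Psme2) were kept in both cultures under each of the 8 alternatives tried for this count. Leaving out the 3 h or the 6 h libraries drops a condition of the count, so no call can be lost there. Kept calls were lost only with a pseudocount of 1 RPKM, a filter of 5 RPKM, the mean gene as centre or the median change of all genes. The other calls held under fewer alternatives. Psmb5 and Psmb6 in WT, and Psma7 and Psmd4 in KO, held under 4 of the 8 and were lost in each of those settings. Psmb3, Psmc5 and Psmd9 in KO held under 5, whereas Psmb5 and Psmb6 in KO and Psma7 in WT held under all 8. The lead of the members' share over that of all genes in KO was not seen at that size in 3 of the settings. Kept genes in KO numbered 8 (21.1%) with a filter of 5 RPKM, beside 24.3% of genes, 8 relative to the median change of all genes, beside 20.2%, and 8 when centred on the mean gene, beside 19.9%. Fallen genes without the 3 h libraries numbered 8 in WT (21.1%, beside 20.6% of genes) and 5 in KO (13.2%, beside 19.7%). With no filter on level they numbered 1 of 39 in WT (2.56%, beside 9.83%) and 0 in KO (beside 10.1%).

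The lead of the members over other genes was larger at 3 h than at 6 h. The median gene of each library is a level, and the median change of all genes on this scale was 0.19 and 0.17 in WT and 0.15 and 0.17 in KO (log2) at 3 and 6 h. Relative to that median change, the median member stood 0.33 higher at 3 h and 0.00 higher at 6 h in WT, and 0.35 and 0.17 higher in KO. The value at 3 h was above the value at 6 h for 30 of 38 members in WT, where this held for 46.9% of all genes, and for 27 of 38 in KO, where it held for 47.4%.

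**Figure D2:**
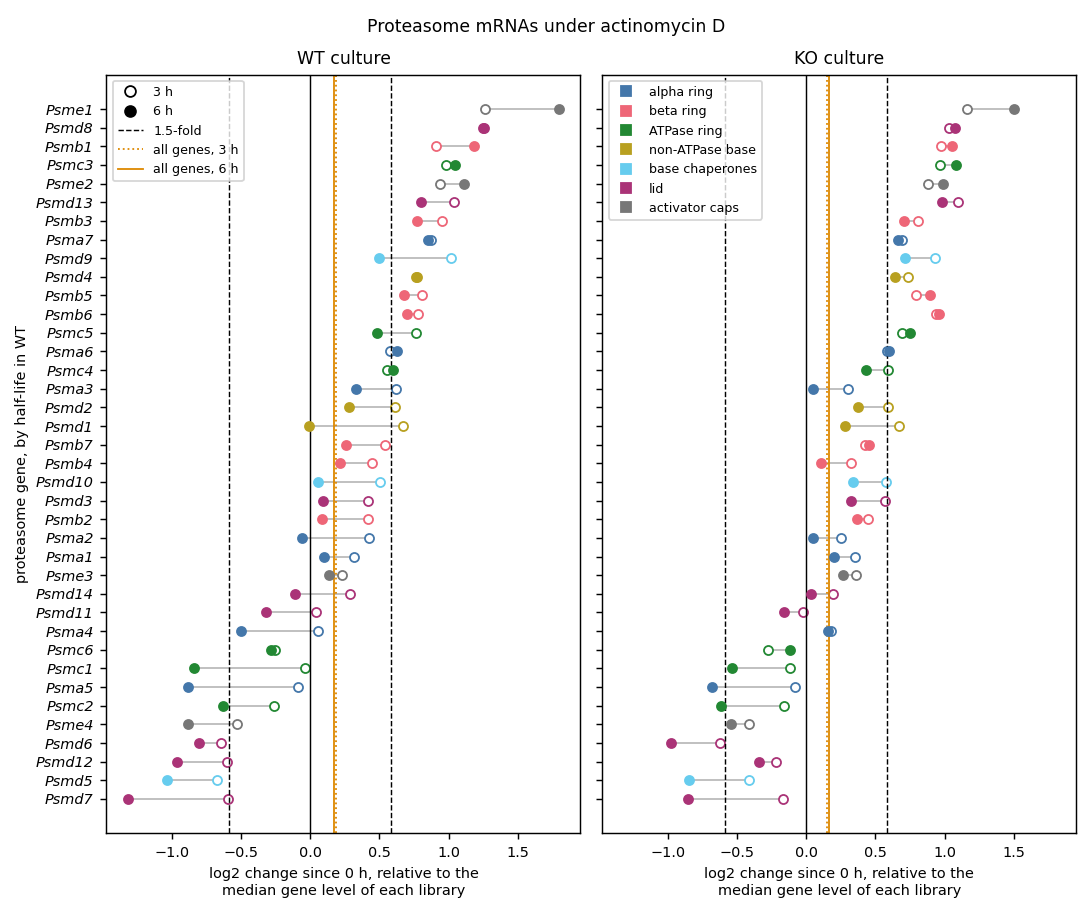
Log2 change since 0 h of each of the 38 members, relative to the median gene of each library, at 3 h (open) and 6 h (filled), in WT (left) and KO (right), 1 library per time. Dashed lines mark 1.5-fold and orange lines the median change of all genes (0.15 to 0.19). Psme1 lies furthest to the right in both cultures, and Psmd7 (WT) and Psmd6 (KO) furthest to the left at 6 h.

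The rings of the proteolytic core differed in median half-life. The 7 beta genes had medians of 1.83 h (WT) and 1.76 h (KO). In each culture 4 of the 7 were kept, where 26.9% (WT) and 25.7% (KO) of all genes were. In WT the calls of Psmb5 and Psmb6 held under 4 of the 8 alternatives and that of Psmb3 under 7. In KO the call of Psmb3 held under 5. Centred on the mean gene, Psmb1 was the only beta gene kept in WT, beside the alpha gene Psma7. In KO, Psmb1, Psmb5 and Psmb6 were kept in that setting and no alpha gene was. The 7 alpha genes, which form the gate of the barrel, had a median of 1.49 h (WT) and 1.41 h (KO), and only Psma7 was kept, its call in KO being among those that held under 4 of the 8 alternatives. The alpha genes reached from 1.21 h (Psma5) to 1.93 h (Psma7) in WT, and the beta genes from 1.52 h (Psmb2) to 2.06 h (Psmb1), so the ranges overlapped.

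Among the 3 catalytic subunits, Psmb7 had the lowest half-life in both cultures (1.60 h in WT and 1.53 h in KO). Psmb5 (1.84 and 1.80 h) and Psmb6 (1.83 and 1.90 h) lay close together. Psmb5, the chymotrypsin-like subunit, measured 148, 122 and 95.2 RPKM over the WT course and 148, 121 and 119 RPKM over the KO course (0, 3 and 6 h). Psmb6, the caspase-like subunit, measured 109, 87.5 and 70.8 RPKM over the WT course and 127, 114 and 106 RPKM over the KO course. Psmb7, the trypsin-like subunit, measured 124, 84.6 and 59.5 RPKM over the WT course and 129, 81.7 and 76.1 RPKM over the KO course. Psmb5 and Psmb6 were kept in both cultures and Psmb7 in neither, but in WT both calls were lost under 4 of the 8 alternatives (a pseudocount of 1 RPKM, a filter of 5 RPKM, the mean gene as centre, and the median change of all genes). The ratio of Psmb7 to Psmb5 was 0.84, 0.69 and 0.63 in WT and 0.87, 0.68 and 0.64 in KO, lower at each later time in both cultures, while that of Psmb6 to Psmb5 stayed between 0.72 and 0.74 in WT and between 0.86 and 0.95 in KO.

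In the cap the ATPases and the lid each held both kinds of gene. The 6 ATPase genes had median half-lives of 1.47 h (WT) and 1.41 h (KO), with Psmc3 at 2.06 h and Psmc2 at 1.203 h as the ends in WT. Psmc3 was kept in both cultures and Psmc5 in KO. Of the non-ATPase base genes, the scaffolds Psmd1 and Psmd2 had half-lives of 1.60 and 1.64 h in WT, and the ubiquitin receptor Psmd4 had 1.84 h and was kept in both cultures.

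The lid, which carries the deubiquitinase, had the lowest median of the groups, 1.38 h (WT) and 1.33 h (KO), and the widest range of the rings and the cap. Its kept genes were Psmd8 and Psmd13, and its fallen genes in WT were Psmd6, Psmd7 and Psmd12. Psmd8 measured 99.9, 112 and 95.6 RPKM over the WT course and 115, 110 and 104 RPKM over the KO course (0, 3 and 6 h). Psmd7, which pairs with Psmd14 in the lid, measured 53.5, 16.5 and 8.55 RPKM over the WT course and 54.0, 22.5 and 12.8 RPKM over the KO course. The ratio of Psmd8 to Psmd7 thus stood at 1.87, 6.76 and 11.2 in WT and at 2.12, 4.89 and 8.16 in KO, so mRNAs of a single subcomplex parted within 3 h in both cultures. Psmd12, a lid scaffold subunit, measured 32.8, 10.04 and 6.67 RPKM over the WT course and 31.6, 12.8 and 10.7 RPKM over the KO course. The calls of Psmd7 and Psmd12 in WT were narrow at 3 h, with -0.60 each beside the limit of -0.58, and in KO their values at 3 h were -0.17 and -0.22.

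Psmd13 measured 72.1, 69.4 and 50.4 RPKM over the WT course and 80.5, 81.1 and 68.2 RPKM over the KO course (0, 3 and 6 h). Psmd6 measured 55.0, 16.4 and 12.6 RPKM over the WT course and 51.3, 15.6 and 11.1 RPKM over the KO course, and was the only member that had fallen in both cultures. Psmd14, the deubiquitinase, measured 43.5, 24.9 and 16.1 RPKM over the WT course and 38.4, 20.6 and 16.9 RPKM over the KO course, and was neither kept nor fallen. Of the base chaperones, Psmd5 measured 21.7, 6.31 and 4.18 RPKM over the WT course and 19.96, 7.01 and 4.71 RPKM over the KO course. It had fallen in WT, with the second lowest half-life there (1.07 h) and in KO (1.11 h), while Psmd9 (1.90 and 1.82 h) was kept in KO.

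The activators held the member with the highest half-life and 1 near the low end. Psme1 measured 459.7, 518 and 642 RPKM over the WT course and 573, 603 and 699.9 RPKM over the KO course (0, 3 and 6 h), so its share of the remaining RNA was higher at each later time. Psme2 measured 674, 606 and 586 RPKM over the WT course and 746, 646 and 638 RPKM over the KO course. The partners of PA28 differed in order, since the ratio of Psme1 to Psme2 was 0.68, 0.85 and 1.10 in WT and 0.77, 0.93 and 1.10 in KO. Both genes were kept in both cultures, with half-lives of 2.67 and 2.06 h in WT. Psme2 shares 99.4% identity with Psme2b, so reads of these genes cannot be assigned with certainty.

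Psme3, the nuclear relative of PA28, measured 39.6, 21.7 and 17.4 RPKM over the WT course and 38.3, 23.1 and 19.8 RPKM over the KO course. Psme4 measured 17.4, 5.58 and 3.70 RPKM over the WT course and 13.99, 4.89 and 4.06 RPKM over the KO course, with half-lives of 1.11 and 1.14 h. The distance between the activators was large, as Psme1 exceeded Psme4 by 26.5-fold at 0 h and 173-fold at 6 h in WT, and by 40.9-fold and 172-fold in KO. The geometric SD over the 38 members was 2.38, 3.01 and 3.42 in WT and 2.47, 3.02 and 3.299 in KO at 0, 3 and 6 h.

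**Figure D3:**
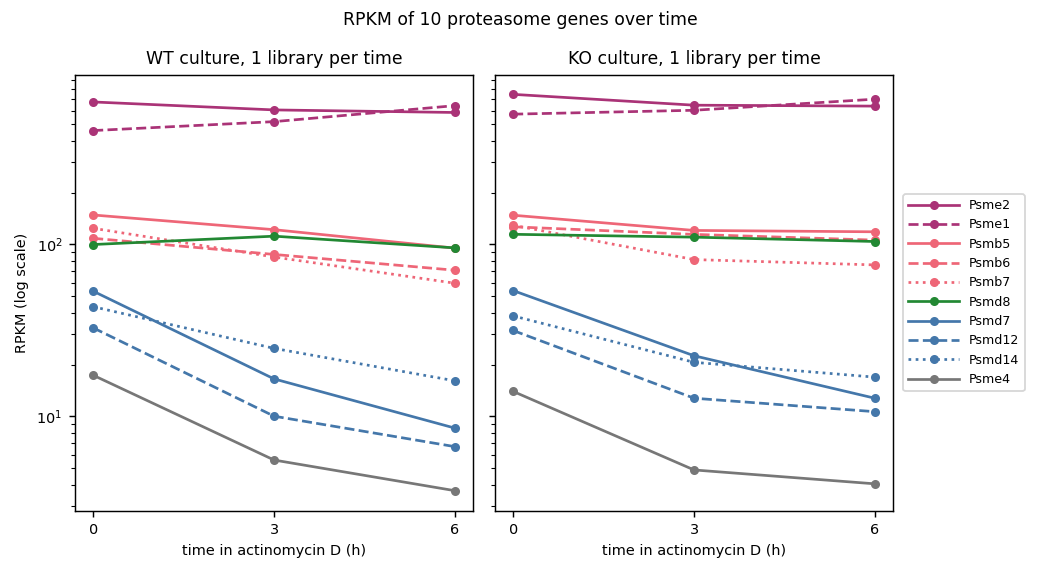
RPKM (log scale) of 10 members at 0, 3 and 6 h of actinomycin D in WT (left) and KO (right), 1 library per point. Psme1 crosses Psme2 by 6 h in both cultures, Psmd8 stays near 95.6 to 115 RPKM, and Psmd7 goes from 53.5 to 8.55 RPKM in WT. RPKM is a share of the remaining RNA and not an amount. On the spike-in scale Psmd8 kept 18.6% (WT) and 28.3% (KO) of its 0 h amount at 6 h.

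The KO to WT comparison asks whether loss of Mettl3 goes with other levels of these mRNAs. With each library centred on its median gene, 0 of 38 members were at least 1.5-fold higher in KO at all 3 times, beside 1.61% of all genes, and 0 were lower, beside 0.931%. The median member differed by -0.02, -0.03 and 0.03 (log2, KO minus WT) at 0, 3 and 6 h. At 0 h, 18 members were above 0 and 20 below, between -0.34 (Psme4) and 0.29 (Psme1). All but 1 member stayed within 1.5-fold at each of the 3 times (37 of 38, 97.4%), where 79.3% of all genes and 86.6% of the 6776 genes averaging 5 RPKM or more did. The SD of the 0 h difference was 0.14 over the 38 members, 0.09 over the 8 genes of the CCT chaperonin, 0.24 over 79 cytosolic ribosomal protein genes and 0.48 over all genes. The SD over all genes takes in differences from -9.90 to 8.93. By quartiles the spreads lay closer, with -0.11 and 0.06 over the members and -0.15 and 0.16 over all genes at 0 h. The approximate counting error of a member's difference had a median of 0.056 and reached 0.25 for Psmd9.

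The ends of the KO to WT level were small and moved between times. Psma4 had the highest mean difference, 0.36 (SD 0.35 over the 3 times), from 118, 57.3 and 33.3 RPKM over the WT course and 128, 68.1 and 61.4 RPKM over the KO course. Its 6 h difference of 0.76 was the only value of a member past 1.5-fold, and the gene has 1 near-identical pseudogene copy (Gm6542). Psmb6 came next with 0.34 (SD 0.13). At the low end stood Psma3, with -0.26 (SD 0.17), which measured 88.2, 63.4 and 44.5 RPKM over the WT course and 86.3, 50.02 and 38.3 RPKM over the KO course. Psmc6, an ATPase gene, had -0.20 (SD 0.10), from 46.8, 18.3 and 15.4 RPKM over the WT course and 40.1, 15.5 and 15.8 RPKM over the KO course.

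On the spike-in scale the mean difference of all 38 members was above 0, with a median of 0.48. The median gene itself stood at 0.36, -0.22 and 1.11 there at 0, 3 and 6 h, and 0 members were higher (2.42% of all genes) or lower (0.114%). Other transcripts did differ between the cultures on the centred scale. The 9 neutrophil markers above the filter had median differences of 1.58, 1.11 and 0.046 at 0, 3 and 6 h. Among them Ltf, Ngp and Cxcr2 were higher and Mmp8 lower at all 3 times, with Cxcr2 at only 0.10 to 0.52 RPKM at 3 and 6 h. Of 23 interferon-stimulated genes, 10 were higher at all 3 times, and the median of their mean differences was 0.64. Their part in the members' values was not tested.

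**Figure D4:**
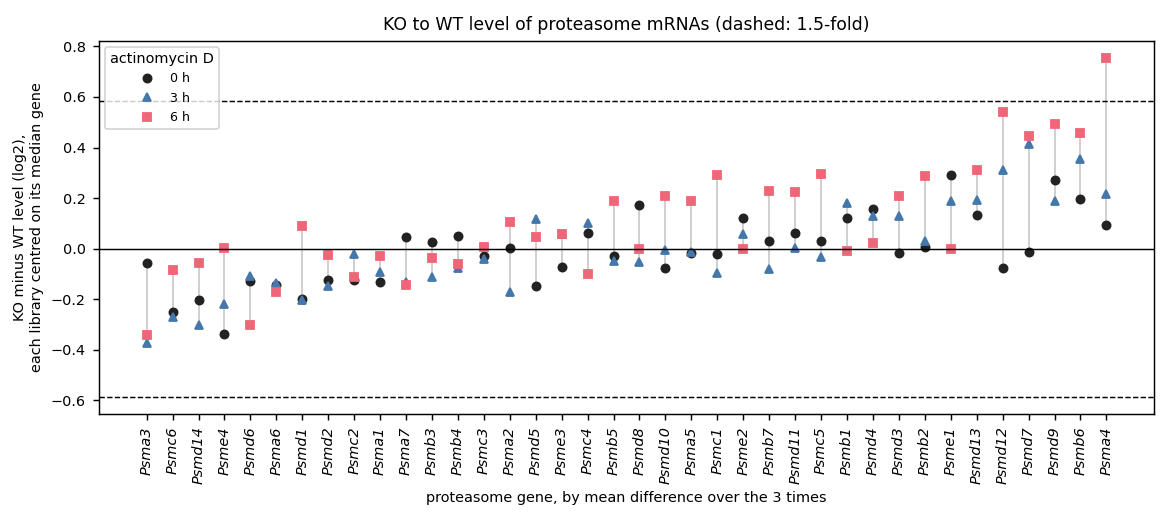
KO minus WT level (log2, each library centred on its median gene) of each member at 0 h (circles), 3 h (triangles) and 6 h (squares), ordered by the mean. Dashed lines mark 1.5-fold. Apart from Psma4 at 6 h (0.76), the points lie inside the lines.

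The order of the half-lives was alike in both cultures. Spearman's rho between WT and KO half-life was 0.97 over the 38 members and 0.94 over all genes, a description across genes that share each library and are not replicates. After the KO rates were shifted so that the median gene had the WT rates, 0 of 38 members decayed faster in KO by the 1.5-fold rule, beside 0.94% of all genes, and 0 slower, beside 1.02%. After that shift the ratio of KO to WT half-life lay between 0.90 (Psma3) and 1.15 (Psmd12), and for the half-lives printed above, which are not shifted, between 0.84 (Psmd8) and 1.11 (Psmd12). The difference in decay rate was below 0 (slower in KO) for 27 members and above 0 for 11, with a median of -0.014 per h and a range from -0.12 to 0.070 per h. On the spike-in scale the split turned to 28 above 0 and 10 below, so no direction is read from it. There too 0 members were faster (0.788% of all genes) or slower (0.589%). With WT rates from RPKM without scaling, 1 member was called faster (Psma7, 2.63%, beside 7.52% of genes) and 1 slower (Psmb6, beside 6.56%).

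**Figure D5:**
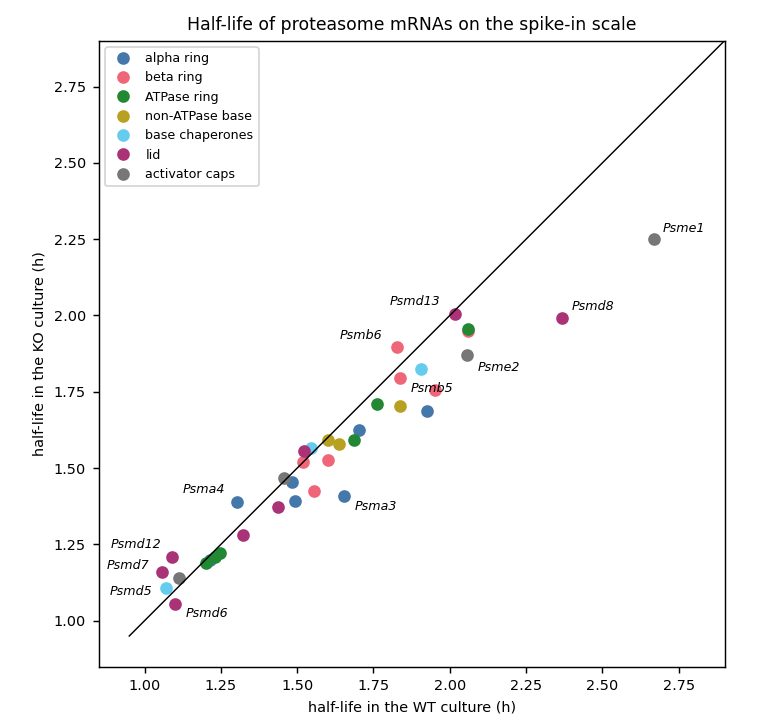
Half-life (h, spike-in scale) of each of the 38 members in KO against WT, coloured by role, with the line of equality. The points run along the line from Psmd6 (1.05 h in KO) to Psmd13 (2.005 h in KO), and Psme1 is the highest (2.25 h in KO). The median ratio of KO to WT half-life was 0.97 with both times used. Without the 3 h libraries the median half-lives were 1.71 h (WT) and 2.34 h (KO). Without the 6 h libraries they were 1.46 h (WT) and 1.14 h (KO), so the ratio depends on the times. Psme1, Psmd8, Psma3 and Psma7 are among the points below the line.

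The interferon-induced subunits that replace the catalytic ones were set beside them. Psmb8, Psmb9 and Psmb10 had half-lives of 1.72, 1.56 and 1.57 h in WT, and none of the 3 was kept or fallen in either culture. The ratio of Psmb8 to Psmb5, which take the same place in the beta ring, was 3.35, 2.99 and 3.12 in WT and 3.96, 3.63 and 3.09 in KO at 0, 3 and 6 h. The ratio of Psmb9 to Psmb6 was 2.58, 2.03 and 1.90 in WT and 2.83, 1.98 and 1.45 in KO, and that of Psmb10 to Psmb7 was 1.24, 1.202 and 1.19 in WT and 1.43, 1.43 and 1.30 in KO. The inducible mRNA was thus above its constitutive counterpart in each of the 6 libraries, for all 3 pairs. The median KO minus WT level of the 3 inducible genes was 0.24, with 0 called.

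Of 2 other multi-subunit machines, the ribosome differed from the proteasome in mRNA decay and the CCT chaperonin lay within its range. Of all genes, 26.9% (WT) and 25.7% (KO) were kept. The 79 cytosolic ribosomal protein genes had median half-lives of 3.24 h (WT) and 2.70 h (KO), and 76 and 77 of them were kept, whereas 11 and 13 of the 38 proteasome members were. The 8 genes of the CCT chaperonin, which folds actin and tubulin, had 1.77 and 1.70 h, with 3 and 4 kept, from Cct6a (1.12 h in WT) to Cct7 (1.92 h). The proteasome members ranged from 1.06 to 2.67 h in WT.

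The genes around the particle were given as lists. The 5 assembly factors had median half-lives of 1.48 h (WT) and 1.19 h (KO), from 1.02 h (Psmg1) to 2.77 h (Pomp) in WT. Pomp, which matures the beta ring, was kept in both cultures and Psmg4 in WT, Psmg3 had fallen in both and Psmg1 in WT. Among the partner genes, Shfm1, the small cap subunit also called Sem1, and Psmf1 were kept in both cultures, with half-lives of 2.54 and 1.93 h in WT. Akirin2, Zfand5, Ubqln2 and Txnl1 had fallen in both, with Ubqln2 at 0.95 h in WT.

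The 4 genes of the transcriptional response to proteasome shortage had a median of 1.08 h (WT) and 0.99 h (KO), from Nfe2l2 (0.79 h in WT) to Ddi2 (1.12 h), and the factors Nfe2l1 and Nfe2l2 had fallen in both cultures. In KO to WT level and decay, 0 of these 4 genes and 0 of the 5 assembly factors were called in either direction.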

How the data were processed

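Poly(A) RNA of 6 libraries (WT and KO at 0, 3 and 6 h of actinomycin D, 1 library each, grouped by the sample labels) was sequenced with ERCC transcripts added in proportion to total RNA. The submitters' processing notes name bcl2fastq, TopHat2 2.0.14, Cuffnorm and the mm10 genome. The annotation and the strand setting were not given in the sources used here. The authors deposited RPKM values in the form RPKM plus 1, multiplied by a single factor per column, which was divided out. 2 columns of the authors' lifetimes were not used, and 27 rows named by a date were left out.

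A pseudocount of 0.1 RPKM was added, which understates changes of low genes, and the 10531 genes averaging 1 RPKM or more were kept. The spike-in factor was the median log2 ratio of 75 of 92 ERCC transcripts. Rates under 0.02 per h were set to 0.02. Level and decay differences between WT and KO are relative to the median gene. Depth was estimated from RPKM steps and counting errors are approximate and cover counting error only. On simulated data over 10531 genes, 92 of 100 genes with a 2-fold KO to WT level difference and 97 of 100 with a decay faster by 0.8 per h were recovered, and 0 and 86 of 10331 unchanged genes were called. There the KO values were copies of the WT values with counting noise alone, so variation between cultures was absent. The change of 0.8 per h was far larger than any member's difference (-0.12 to 0.070 per h). The simulation thus gives no error rate for the counts of members called. Gene positions are from GENCODE M21, and copies were sought with BLAST 2.17.0 (at least 95% identity over 50% of the length). Python 3.11.15, pandas 2.3.3 and numpy 2.4.6 were used.

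All members are described by role. The catalytic subunits, Psmd14, the activators, the 2 members at each end of half-life and KO to WT level, called members and those below the filter are given in each library, as are the 2 ends and called genes of other lists where they bear on the text. Members, lists and promoter motifs were chosen with earlier results of these data known. Alternatives changed the scaling, pseudocount, filter, centre and times used. Some genes of the partner and ubiquitin lists are not reported here.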

Additional observations from a re-analysis of the deposited data

How the results depend on the processing

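Counts of members called in KO to WT level or decay stayed at 0 under most alternatives. The exceptions were 1 lower member with no filter (Psma8, below the main filter, beside 1.04% of genes) and 1 faster and 1 slower with WT rates from RPKM without scaling (Psma7 and Psmb6, beside 7.52 and 6.56% of genes). With no spike-in scaling the median half-life was 5.27 h in WT and 5.97 h in KO, without the 3 h libraries 1.71 and 2.34 h, and without the 6 h libraries 1.46 and 1.14 h. Kept members numbered 7 in WT (18.4%, beside 20.6% of genes) and 8 in KO (21.1%, beside 19.9%) when centred on the mean gene, 8 in KO with a filter of 5 RPKM (beside 24.3%), and 8 in WT and 8 in KO (beside 20.6 and 20.2%) relative to the median change of all genes (an alternative chosen after seeing the data), so in these settings the members' share in KO lay near or below that of all genes. Fallen members numbered 1 in WT and 0 in KO with no filter, and 8 and 5 without the 3 h libraries. The median KO minus WT level was -0.015 without the 6 h libraries, 0.48 on spike-in scaled amounts and 0.10 from RPKM with no scaling, and the median difference in decay per h was -0.027 when the 3 h libraries were left out and 0.020 per h on spike-in scaled amounts. The cause of these shifts was not tested.

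No paired analysis was possible because each genotype has a single library at each time, with no shared replicate numbers. Depth limits Psmd9 most, with approximately 55.4 reads in its lowest library.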

Other observations

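Among the 38 members, half-life went with level. Spearman's rho between half-life and RPKM at 0 h was 0.53 in WT and 0.48 in KO, and 0.09 over all genes in WT, as a description across genes that share each library. With coding length rho was -0.37 in WT and -0.34 in KO over the members, and -0.29 and -0.32 over 9824 genes.

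The 5 members with CCGGAAGT in the promoter window, Psmc1, Psmc2, Psmd12, Psmd6 and Psme4, had half-lives of 1.23, 1.203, 1.09, 1.10 and 1.11 h in WT, each under the member median of 1.58 h. The lowest half-lives in WT, those of Psmd7 (1.06 h) and Psmd5 (1.07 h), belonged to members outside these 5. Half-lives of the other genes with this motif were not examined. The pattern was seen after the values were known and has no test. The members lie on 16 chromosomes, with 8 on chromosome 11 and 6 on chromosome 14. Psme1 (chr14:55578123-55581529, plus strand) and Psme2 (chr14:55587441-55591113, minus strand), the members with the highest levels, point towards each other by their GENCODE M21 positions. Genes between them were not looked for. The share of the summed RPKM held by the members was 0.45% in WT and 0.47% in KO at 6 h.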
